A study of Mus musculus with 42 samples.

Results

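The regions described here are stretches of the mouse genome where the repressive histone mark H3K27me3 was called in cells treated with tributyltin (TBT) and in no solvent library. Islands of the mark, meaning runs of enriched windows called against input DNA, were merged over the 8 H3K27me3 libraries. A merged autosomal region was taken when at least 3 of the 4 TBT libraries and 0 of the 4 solvent libraries had an island in it. This gave 1424 of 67899 merged regions, or 2.1%, covering 12820 kb. The regions were thus chosen by their H3K27me3 calls in these same 8 libraries, so the calls and the enrichment values behind them are given as a description, with no test.

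The cells were bone marrow mesenchymal stromal cells of C57BL/6 mice, bought commercially, stored frozen and used at passage 9 to 10, with no genetic alteration named in the labels. They were treated for 48 h with dimethyl sulfoxide alone (DMSO, 0.1%), TBT (50 nM), AGN194204 (100 nM) or rosiglitazone (100 nM). RNA was sequenced in 6 libraries per treatment, and H3K27me3 and H3K4me3 were mapped in 4 DMSO and 4 TBT libraries each, against 1 input per treatment. Nothing in the labels ties the libraries of a treatment to separate cultures, and the p-values therefore reflect spread that may be technical alone. TBT is an organotin pollutant that activates the retinoid X receptors (RXR) and PPARγ. AGN194204 activates RXR, and rosiglitazone activates PPARγ, the receptor that drives adipocyte differentiation.

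H3K27me3 is written by Polycomb repressive complex 2 (PRC2), in which Ezh2 or Ezh1 is the enzyme and Eed and Suz12 are core subunits, and it is removed by the demethylases Kdm6a and Kdm6b. The mark lies broadly over silent developmental genes. H3K4me3 marks the starts of active or poised genes, and starts that carry both marks are called bivalent. In stromal cells, H3K27me3 is known to hold genes of other lineages silent.

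Of 1424 TBT-only regions, 251 held a gene start. RefSeq promoter windows (GRCm38.p6, 250 bases before to 50 after a start) lay wholly inside TBT-only regions in 351 cases, from 297 genes. The windows of 6 genes are printed because each lies inside both a TBT-only H3K27me3 region and an H3K4me3 region found in all 8 H3K4me3 libraries, and because the RNA of each passed the test under TBT. They were chosen after their values were seen. Each is printed 5′ to 3′ on the strand of the gene, with CG dinucleotides, the sites of DNA methylation, in capitals. RNA of the first 4 genes rose and RNA of the last 2 fell. Both kinds of region were merged over libraries. Whether the islands of each library reach a window or a gene start was not tested, here and below.

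Adamts14, chr10:61273370-61273669, minus strand: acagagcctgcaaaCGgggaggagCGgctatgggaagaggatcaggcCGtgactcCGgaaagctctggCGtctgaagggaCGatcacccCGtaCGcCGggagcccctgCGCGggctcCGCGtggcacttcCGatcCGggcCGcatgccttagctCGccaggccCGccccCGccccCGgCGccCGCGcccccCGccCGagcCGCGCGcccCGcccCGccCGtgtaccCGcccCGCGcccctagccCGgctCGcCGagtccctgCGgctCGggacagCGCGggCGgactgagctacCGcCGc
Lgals9, chr11:78984875-78985174, minus strand: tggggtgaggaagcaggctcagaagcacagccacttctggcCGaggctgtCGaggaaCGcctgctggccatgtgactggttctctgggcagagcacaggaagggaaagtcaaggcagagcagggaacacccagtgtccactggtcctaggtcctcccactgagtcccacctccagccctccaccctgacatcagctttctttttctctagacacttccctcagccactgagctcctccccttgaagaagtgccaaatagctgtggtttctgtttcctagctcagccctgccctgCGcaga
Irf5, chr6:29526375-29526674, plus strand: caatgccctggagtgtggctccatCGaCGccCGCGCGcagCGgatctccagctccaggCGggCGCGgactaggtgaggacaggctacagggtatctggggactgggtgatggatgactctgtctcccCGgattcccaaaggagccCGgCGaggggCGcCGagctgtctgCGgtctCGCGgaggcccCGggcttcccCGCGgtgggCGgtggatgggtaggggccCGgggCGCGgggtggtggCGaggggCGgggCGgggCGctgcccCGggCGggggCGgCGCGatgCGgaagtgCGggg
Reck, chr4:43875280-43875579, plus strand: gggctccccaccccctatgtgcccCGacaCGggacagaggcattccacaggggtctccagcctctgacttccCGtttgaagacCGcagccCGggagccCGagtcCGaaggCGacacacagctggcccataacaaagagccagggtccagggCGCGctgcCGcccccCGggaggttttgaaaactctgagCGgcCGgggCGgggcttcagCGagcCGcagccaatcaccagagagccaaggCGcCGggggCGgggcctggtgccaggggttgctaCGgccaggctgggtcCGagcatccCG
Rassf7, chr7:141215610-141215909, plus strand: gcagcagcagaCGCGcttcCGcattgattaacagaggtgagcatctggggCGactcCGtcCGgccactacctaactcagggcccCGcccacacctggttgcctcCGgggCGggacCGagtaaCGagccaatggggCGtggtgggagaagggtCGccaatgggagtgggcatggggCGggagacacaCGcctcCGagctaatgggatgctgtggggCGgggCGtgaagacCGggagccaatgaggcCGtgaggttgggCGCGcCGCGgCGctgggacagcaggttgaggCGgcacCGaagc
Nrgn, chr9:37552696-37552995, minus strand: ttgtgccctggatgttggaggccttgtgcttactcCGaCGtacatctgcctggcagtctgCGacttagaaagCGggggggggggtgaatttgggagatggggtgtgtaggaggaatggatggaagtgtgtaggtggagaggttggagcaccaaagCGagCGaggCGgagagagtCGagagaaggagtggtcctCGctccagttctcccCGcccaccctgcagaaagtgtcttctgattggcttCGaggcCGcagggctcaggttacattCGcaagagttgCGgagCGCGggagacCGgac

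The window of Adamts14 held 44 CG dinucleotides and that of Irf5 held 35, in sequences of 76.7% and 74.7% G or C. Rassf7 had 27, Reck 23 and Nrgn 17. The window of Lgals9 stood apart with 4 CG dinucleotides at 58% G or C. Over all windows inside TBT-only regions the median was 8 CG dinucleotides and 55.7% G or C, against 7 and 53% in all 31396 autosomal windows. CG-rich windows (at least 50% G or C and at least 0.6 of the CG dinucleotides that the base content gives) made up 126 of 351, or 35.9%. The share was 34.1% over all windows and 36% inside regions with an island in all 8 H3K27me3 libraries. It was 11 of 81, or 13.6%, inside regions called only in DMSO.

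A receptor half-site of the RXR family, AGGTCA on either strand, was in 14.2% of windows inside TBT-only regions and 16.3% of all windows. The direct repeat of AGGTCA with 1 base of any kind between the copies was in 1 window, that of Apol7c, against 0.0382% of all windows. The letters GAAA, any 2 bases and GAAA again, a core shared by binding sites of interferon regulatory factors, were in 12 windows, or 3.42%, against 3.46% of all windows. Lgals9 and Emilin2 were among the 12. The shares of AGGTCA and of the GAAA pair in TBT-only regions were close to those of all windows, and a match is a description, not a site.

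One TBT-only region, chr14:115038600-115044599, held the start of Mir17hg and all 6 hairpins of the miR-17-92 cluster, a set of growth-promoting miRNAs that are cut from 1 transcript. Their main mature strands from RefSeq (GRCm38.p6) are printed with the seed, bases 2 to 8, in capitals, because the whole cluster lies inside the region.

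miR-17-5p: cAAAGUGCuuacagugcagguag
miR-20a-5p: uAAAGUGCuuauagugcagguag
miR-18a-5p: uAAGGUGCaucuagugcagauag
miR-19a-3p: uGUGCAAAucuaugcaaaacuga
miR-19b-3p: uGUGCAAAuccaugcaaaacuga
miR-92a-3p: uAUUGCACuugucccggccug

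miR-17-5p and miR-20a-5p share the seed AAAGUGC, and miR-19a-3p and miR-19b-3p share GUGCAAA. miR-18a-5p and miR-92a-3p each have a seed of their own in this set. The fold of H3K27me3 over input in this region was 1.42, 1.83, 1.44 and 1.77 in TBT replicates 1 to 4, and all 8 H3K4me3 libraries had an island there. RNA of the host gene Mir17hg was 18.8 to 23.9 CPM (gene counts scaled to the library total) in DMSO with a median of 22.2, and 13.6 to 22.8 CPM under TBT with a median of 15.7. The groups overlapped, and the log2 fold change was -0.39 ± 0.11 (SE, n = 6 per group; adjusted p = 0.0076). It was -0.41 under AGN194204 (adjusted p = 0.0062). With library sizes from the ERCC spike-ins the TBT value of Mir17hg was -0.30 (adjusted p = 0.15). These RNA values are of the host transcript, and the miRNAs themselves were not measured. In all, 17 miRNA hairpins of 919 on autosomes lay inside 10 TBT-only regions, among them Mir210, Mir181d, Mir218-2 and Mir338.

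TBT-only calls were rare beside calls in few libraries. Islands were found in all 4 TBT libraries in 289 TBT-only regions, and in 3 of 4 in 1135. The missing library was replicate 1 in 260 regions, replicate 2 in 374, replicate 3 in 302 and replicate 4 in 199. Just outside the rule lay 4068 regions with islands in 2 TBT and 0 DMSO libraries, and 1374 with islands in 3 or 4 TBT libraries and 1 DMSO library. The opposite pattern, islands in at least 3 DMSO and 0 TBT libraries, held for 781 regions and is called DMSO-only below. Islands in a single library made up 40159 regions, and 2859 had islands in all 8.

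**Figure D1:**
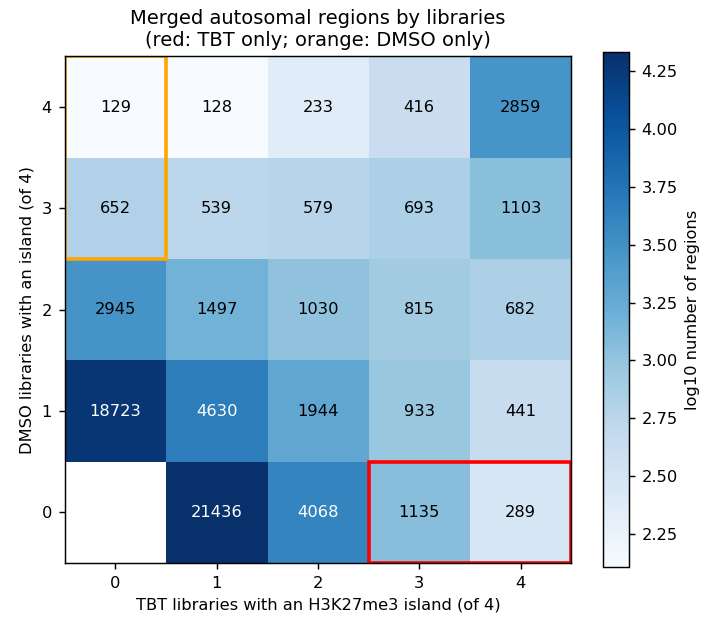
Number of merged autosomal H3K27me3 regions by the number of DMSO libraries (vertical) and TBT libraries (horizontal) with an island, with colour on a log10 scale. The red frame holds the 1135 and 289 TBT-only regions and the orange frame the 652 and 129 DMSO-only regions.

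The number of called islands in a library sets how many such regions can arise. DMSO replicates 1 to 4 had 18181, 17081, 25255 and 26890 islands, and TBT replicates 26488, 21649, 24276 and 34013. The means were 21852 ± 4940 in DMSO and 26606 ± 5319 under TBT (SD, n = 4), and the ranges overlapped. Islands covered 105137 to 165412 kb in DMSO libraries and 153784 to 175359 kb in TBT libraries. The rule drew on these same calls, so no test is given. An island that is not called is not shown to lack the mark. All libraries of 1 treatment were called against the same input: in 5431 of 5431 pairs of islands with equal coordinates within a treatment the input count was identical. Replicate 1 also had more ChIP reads relative to input (1.11 in DMSO and 0.989 under TBT, against 0.703 to 0.821 in the other 6 libraries).

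Enrichment in the TBT-only regions was low. The median fold of ChIP over scaled input reads was 1.38, 1.40, 1.41 and 1.48 in TBT replicates 1 to 4, from medians of 242, 204, 195 and 159 ChIP reads. The same libraries had medians of 1.38 to 1.5 in regions with islands in all 8, close to those of the TBT-only regions. Their median length was 7800 bp (400 to 60400), against 4200 bp for all regions, 7400 bp for DMSO-only regions and 30600 bp for regions with islands in all 8. In 1219 of the 1424, islands of at least 3 TBT libraries shared a 200-bp window. The others were joined by islands that overlap in part.

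The strongest enrichment with islands in all 4 TBT libraries was at Cyp4x1, a cytochrome P450 gene, and the start of its antisense gene Cyp4x1os, in chr4:115132200-115137199. It had 162, 134, 158 and 138 ChIP reads against 70, 109, 97 and 65 input reads, or folds of 2.34, 1.73, 2.32 and 2.89. Next by the median fold came an intergenic region, chr19:49460200-49461399 (1.52, 2.07, 2.05 and 2.16), and one at Ppp1r36, a regulatory subunit of protein phosphatase 1 (1.72, 2.33, 1.88 and 2.17). A region at Bace2, an aspartyl protease, had folds of 2.04, 1.93, 2.01 and 2.06. It also overlapped an H3K4me3 island in all 8 libraries. The other 4 of the 8 strongest were at Tmem232 or in no gene. With 3 TBT libraries, the highest values were 5.13, 7.44 and 7.27, in a 600-bp region inside Camta1, a transcription activator gene, chr4:151523800-151524399. The region over the start of Cxcr4, the chemokine receptor that keeps blood cells in the marrow, had 2.85, 2.61 and 2.93 in replicates 1, 3 and 4. RNA of Cxcr4 was under the filter on low counts. A region at Lin28a, an RNA-binding protein of stem cells, came after these, with 3.05, 2.75 and 2.33 in replicates 2 to 4.

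Long regions were weakly enriched. A 49400-bp region on chr2:173039600-173088999 over 4 predicted genes had folds of 1.27, 1.16, 1.15 and 1.73 in TBT replicates 1 to 4. Another, of 39600 bp, covered the start of Sptbn5, a spectrin, with 1.2, 1.21, 1.27 and 1.74. In a 38000-bp region at Tdpoz5, the values were 1.11, 1.16, 1.19 and 1.16. Where a library had several islands in a region, the value is that of its strongest island.

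The authors' deposited table of differential H3K27me3 peaks lists 4272 autosomal peaks, of which 47.5% were higher under TBT. Peaks of that table overlapped 457 of the TBT-only regions, 456 of them higher under TBT, which the rule itself favours. The authors' deposited table gives log2 concentrations, whose TBT median over these peaks was 5.87 and whose DMSO values ran from -0.19 to 6.28, with 157 below 0. In 111 regions with matching coordinates the TBT value less log2 of ChIP reads minus scaled input reads had a median of 0.01 and quartiles of -0.22 and 0.22.
Among TBT-only regions, the smallest FDR in the authors' deposited table fell on chr11:120005800-120027399 at Aatk, an apoptosis-associated kinase. In the authors' deposited table its concentrations were -0.19 in DMSO and 7.26 under TBT. These FDRs compare the same libraries that the rule used, so they only order the regions. The value -0.19 was the lowest in DMSO over these peaks and recurs below, so differences from it do not size a change. At Aatk the island folds over input were 1.39, 1.76, 1.26 and 1.77 in TBT replicates 1 to 4. Next by FDR in the authors' deposited table came the start of the predicted gene Gm39261 (-0.19 and 6.82) and the start of Arhgap45, a GTPase-activating protein (1.32 and 7.26). An intergenic region on chromosome 2 came after these in the authors' deposited table (0.13 and 6.96). Dnmt3a, a DNA methyltransferase, followed in the authors' deposited table, with -0.19 and 6.72 in a peak over its start. In the authors' deposited table a peak over the start of Fat3, an atypical cadherin, had -0.19 and 6.46. The one peak that went the other way lay in Sntb1 at chr15:55869200-55881599, although 3 TBT libraries and 0 DMSO libraries had an island there. In the authors' deposited table it had 4.94 in DMSO and -0.22 under TBT (FDR 8.89e-05), and -0.22 was the lowest TBT value over these peaks.

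TBT-only regions held gene starts more often than all merged regions. A start lay inside 17.6% of them, against 10.9% of all regions, 8.71% of DMSO-only regions and 61.2% of regions with islands in all 8. Among the 289 with islands in all 4 TBT libraries the share was 29.4%. Median length was 7800 bp for TBT-only regions, 4200 bp for all regions and 7400 bp for DMSO-only regions. The part of length in these shares was not tested. In 531 TBT-only regions, or 37.3%, there was no gene, and 893 were assigned 1121 genes, by a gene body in the region or a start within 2 kb of it. These were 736 coding genes, 265 lncRNA genes, 70 pseudogenes and smaller classes. Another merged region lay within 5 kb of 65.4% of TBT-only regions, while the nearest region with islands in all 8 was at a median distance of 202600 bp.

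Lists of developmental and lineage genes were set beside the regions. Of 220 genes on a partial list of homeobox, Sox, Fox, Gata and related families, 5 had a TBT-only region. These were Dlx1as (an antisense gene), Foxn2, Hoxa3, Sox13 and Sox5, or 2.27%, against 2.38% of all 47042 RefSeq genes of the autosomes. The list did not count the homeobox genes Pknox2 and Meis2 or the T-box gene Tbr1, which also had a TBT-only region. The share therefore holds for the listed genes and not for the whole families. Of 42 genes for Wnt ligands, Frizzled receptors and their secreted modulators, 1 had one (Wnt8a). Of 31 adipogenic regulators only Bmp7 did, and of 28 osteoblast and chondrocyte genes Sox5 and Acan did. None of 6 muscle regulators and none of 17 PRC2 and demethylase genes had one. Among families grouped by symbol, protocadherins had 13 of 68 (of which most belong to the overlapping Pcdha cluster and are not independent). Potassium channel and related genes (symbols starting Kcn) had 7 of 96, or 7.29%, among them Kcnd2, Kcnma1 and Kcnq3. Calcium channel genes had 2 of 25, or 8% (Cacna1b and Cacna1d). Zfp genes had 9 of 406, or 2.22%, and Slc genes 13 of 371, or 3.5%. Only part of the families counted are given. A region anywhere in a gene body counted, and gene length was not taken into account. Olfactory receptors had 5 of 1420, or 0.352%.

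The share varied between autosomes, and the spread was not tested. TBT-only regions made up 2.55% of 3993 merged regions on chromosome 11 and 2.45% of 3994 on chromosome 15. They made up 1.42% of 564 on chromosome 16 and 1.52% of 1778 on chromosome 1, the autosomes with the fewest merged regions. The ratio to DMSO-only regions ran from 3.64 on chromosome 11 and 3.33 on chromosome 4 to 0.873 on chromosome 19 and 0.8 on chromosome 16. On chromosomes 16 and 19, DMSO-only regions were the more numerous, by 10 to 8 and by 63 to 55, so the counts on chromosome 16 were small.

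**Figure D2:**
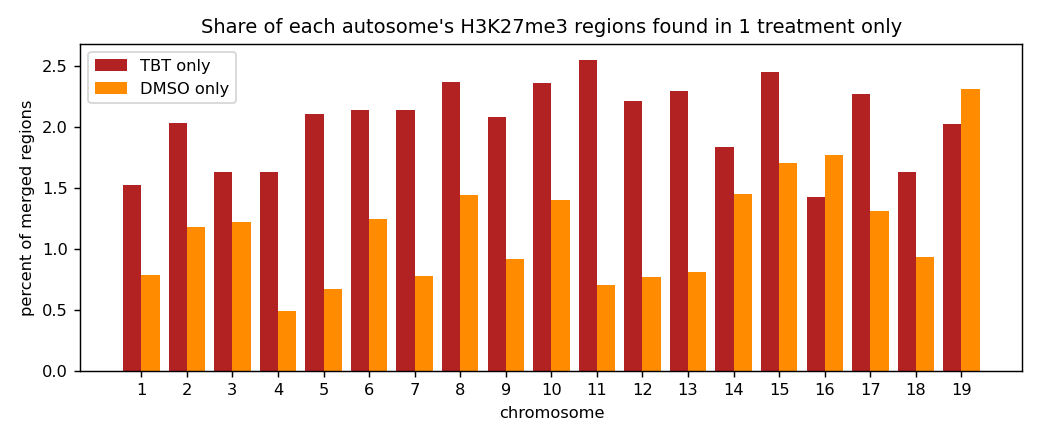
Percent of each autosome's merged H3K27me3 regions that were TBT-only (red bars) or DMSO-only (orange bars). TBT-only shares lie between 1.42% and 2.55%, and the orange bar is taller on chromosomes 16 and 19.

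H3K4me3 gave a readout that the rule did not use, although the same inputs served both marks. An H3K4me3 island overlapped 15.2%, 15.9%, 17.4% and 14.5% of TBT-only regions in DMSO replicates 1 to 4, and 18.4%, 17.8%, 17.3% and 20.1% in TBT replicates. The lowest TBT library lay just under the highest DMSO library. Over all merged regions the shares were 10.8% to 14% in DMSO and 11% to 12% under TBT. In DMSO-only regions they were 7.43% to 17.5% in DMSO libraries and 5.12% to 6.79% in TBT libraries, the reverse direction. Input reads were compared in H3K4me3 islands with the same coordinates in both treatments. TBT input was 1.17 times DMSO input over all islands (exact 95% interval 1.16 to 1.18, counting error only). It was 1.09 times within TBT-only regions (1.04 to 1.15, 51 islands). Within regions with H3K27me3 islands in all 8 libraries it was 1.14 times (1.12 to 1.16, 420 islands). Within DMSO-only regions it was 1.60 times (1.21 to 2.11, 4 islands). The part of the inputs in the TBT-only calls was not tested.

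**Figure D3:**
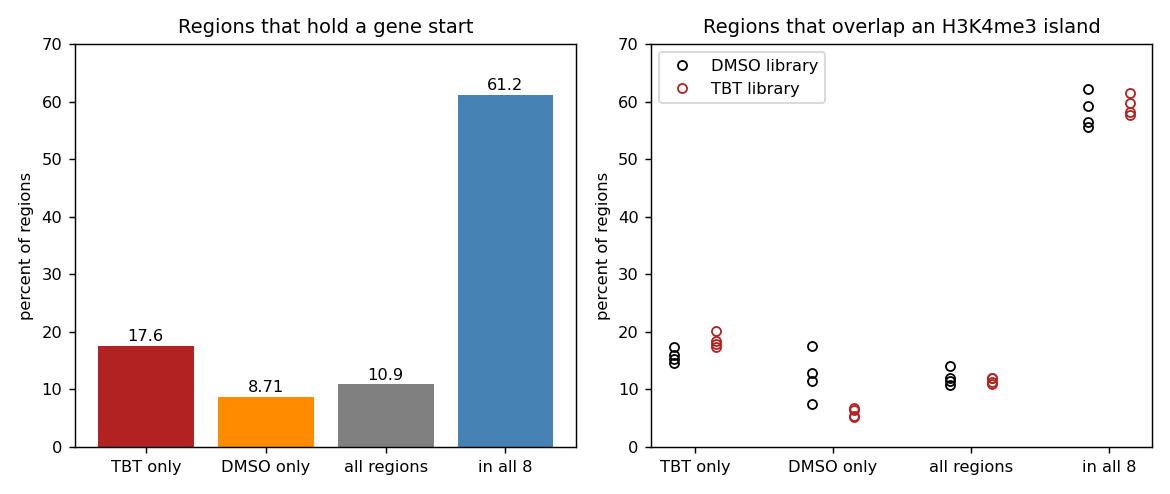
Left, percent of regions that hold a gene start, for TBT-only, DMSO-only, all merged regions and regions with islands in all 8 libraries. Right, percent that overlap an H3K4me3 island, 1 circle per library (black DMSO, red TBT): TBT-only regions reach 20.1% under TBT, and DMSO-only regions 6.79%.

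At least 3 H3K4me3 libraries of each treatment had an island in 164 TBT-only regions, and no library had one in 874. In 19 regions H3K4me3 was called in at least 3 TBT libraries and 0 DMSO libraries, and in 1 region the reverse. Among the 251 regions with a gene start, 127 had H3K4me3 islands in at least 3 libraries of a treatment and 86 had none. Among the 10 longest of the 127 were those over the starts of Sptbn5, Gm52380, Prrc2a and Aif1, Aqp5 and Aqp6 (water channels), Rassf7 and Phrf1, Ptk7 (a Wnt co-receptor) and Mob2.

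H3K4me3 read counts in TBT-only regions did not pass the test. These are reads inside the islands that each library had in a region, not reads over a fixed interval. Of 12333 H3K4me3 regions with islands in all 8 libraries, 16 passed edgeR's test at an adjusted p under 0.05, or 0.13%. Of the 188 that overlap a TBT-only region 0 passed, 18 had an unadjusted p under 0.05 (9.57%, against 8.24% of all tested), and DESeq2 called 3, where it called 135 of all tested regions, or 1.09%. Their log2 fold changes ran from -0.66 to 0.69 with a median of -0.01.
The 3 regions called by DESeq2 lay beside Iigp1, at Lmtk3 and at Lgals9. Beside Iigp1, in an H3K4me3 region that shares 400 bp with the TBT-only region, DMSO libraries had 66.0, 44.7, 76.4 and 72.0 CPM of H3K4me3 reads and TBT libraries 102, 107, 114 and 92.4, with no overlap. The log2 difference was 0.69 ± 0.13 (SE, n = 4 per group; adjusted p = 0.08 in edgeR and 0.016 in DESeq2). At Lmtk3, a kinase gene, DMSO libraries had 96.3, 103, 103 and 105 CPM and TBT libraries 77.8, 89.3, 83.1 and 74.7, again apart, a log2 difference of -0.33 ± 0.06 (adjusted p = 0.087 in edgeR and 3.17e-04 in DESeq2). At the start of Lgals9 the values were 34.1, 31.9, 39.8 and 35.2 CPM in DMSO and 53.9, 42.2, 52.2 and 40.1 under TBT, a log2 difference of 0.42 ± 0.12 (adjusted p = 0.31 in edgeR and 0.037 in DESeq2).

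RNA of the same treatments was set beside the regions, since H3K27me3 is a mark of silent genes. Genes with a TBT-only region moved in both directions. Of 850 genes in the RNA table, 367 (43.2%, against 27.6% of all genes) passed the filter on low counts, and 154 had 0 counts in every library. The share that passed was 37% for genes of DMSO-only regions and 26.1% for genes of regions with islands in all 8. At an adjusted p under 0.05 in edgeR, 75 of the 367 rose and 60 fell under TBT, together 36.8%. Changes of at least 2-fold were seen for 10 that rose and 2 that fell, against 156 and 44 of all genes. Over all 12529 tested genes 28.9% were called, 15% higher and 13.9% lower. The median log2 fold change was 0.00 for the 367 and -0.01 for all genes, and the median level was 5.27 and 5.54 log2 CPM. The share called was 33.7% of 86 genes when only regions with islands in all 4 TBT libraries were used, with 12 higher and 17 lower. For genes of DMSO-only regions it was 33.6% of 131, with 20 higher and 24 lower, and for genes of regions with islands in all 8 it was 29% of 1060. No test sets these shares apart.
When library sizes were taken from the ERCC spike-ins, 67 rose and 14 fell among these genes, and 1802 rose and 293 fell among all genes, or 16.7%.

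**Figure D4:**
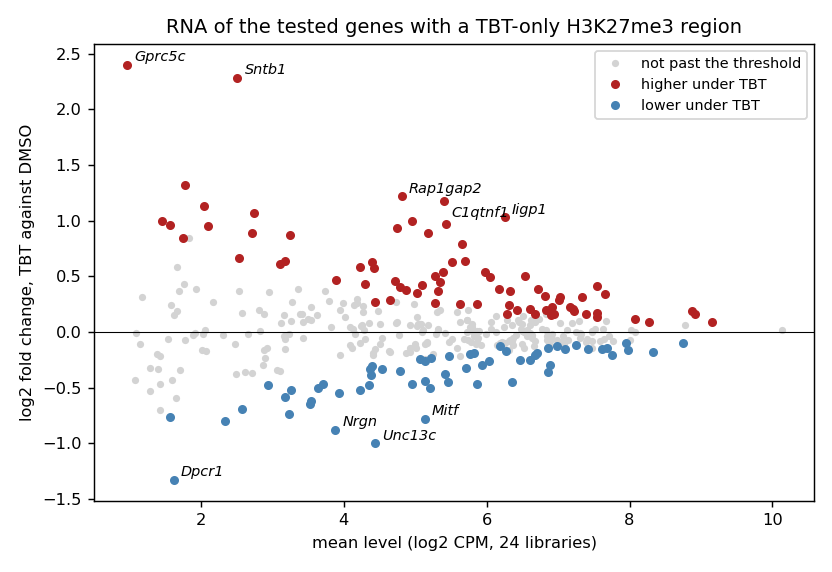
Log2 fold change of RNA (TBT against DMSO, vertical) against mean level (log2 CPM, horizontal) for the 367 tested genes with a TBT-only region, 1 point per gene. The 75 genes that rose (red) and the 60 that fell (blue) lie on both sides of 0 at all levels, with Sntb1 at 2.28 and Dpcr1 at -1.33.

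The clearest rises were at C1qtnf1, Rap1gap2, Adamts14 and Sntb1. RNA of C1qtnf1, a secreted protein related to adiponectin, was 22.7 to 29.2 CPM in DMSO (median 24.8) and 50.9 to 63.7 CPM under TBT (median 59). The groups did not overlap, and the log2 fold change was 1.18 ± 0.08 (SE, n = 6 per group; adjusted p = 2.33e-14). Its H3K27me3 region, inside the gene, had folds over input of 1.30, 1.47 and 1.41. Rap1gap2, which switches off the small GTPase Rap1, went from 13.9 to 19.2 CPM (median 16.7) to 33 to 44.5 CPM (median 38.1), again apart, by 1.22 ± 0.10 (adjusted p = 4.57e-12). Its 4 TBT libraries had folds of 1.12, 1.13, 1.2 and 1.38 inside the gene. Sntb1, a syntrophin of the dystrophin complex, had the second largest log2 rise, from a range of 1.18 to 2.57 CPM to 7.13 to 12.8 CPM, or 2.28 ± 0.22 (adjusted p = 8.53e-11). It has 2 TBT-only regions, both inside the gene.
Of the 75, only Gprc5c, an orphan receptor, rose further, by 2.40 ± 0.48 (adjusted p = 1.72e-04), from 0 to 0.98 CPM in DMSO to 0.498 to 4.31 CPM under TBT, with overlapping groups.

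Genes with a TBT-only region over their start also rose. Adamts14, which trims the ends of procollagen, had 24.4 to 33.9 CPM in DMSO (median 27.3) and 47.1 to 65.7 CPM under TBT (median 56), a rise of 0.97 ± 0.09 (adjusted p = 8.43e-11) with no overlap. The H3K27me3 folds in the merged region that holds its start were 1.47, 1.45 and 1.28. Apobr, a receptor for apolipoprotein B, rose by 0.64 ± 0.07 from a median of 42 CPM to 64.4 CPM. Lgals9, which encodes galectin-9, rose from 34.4 to 39 CPM (median 37.3) to 45.8 to 83.1 CPM (median 66.8), by 0.79 ± 0.11 (adjusted p = 4.33e-07). Its H3K27me3 folds were 1.37, 1.70 and 1.42 in replicates 2 to 4. Irf5, an interferon regulatory factor, rose by 0.46 ± 0.11 (adjusted p = 0.0011) with overlapping groups, from 16.6 to 26.4 CPM to 22 to 33.6 CPM, and had islands in all 4 TBT libraries (1.19, 1.16, 1.37 and 1.32). Reck, an inhibitor of matrix metalloproteases, rose by 0.47 ± 0.14 (adjusted p = 0.0087), from a median of 12.8 CPM to 18 CPM, with overlap. Emilin2, a matrix glycoprotein, rose by 0.50 ± 0.07, Nacc2, a repressor of the BTB family, by 0.34 ± 0.05, and St3gal5, which makes the ganglioside GM3, by 0.31 ± 0.04, each with groups apart.

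Among the 222 genes in the RNA table with a start inside a TBT-only region, 114 were tested, of which 21 rose and 18 fell, together 34.2% against 28.9% of all genes. All but 4 of the 114 had H3K4me3 in at least 3 libraries of a treatment. Several well-known regulators among them did not pass the test. Dnmt3a had a median of 54 CPM in DMSO and 56.2 CPM under TBT (log2 fold change 0.04 ± 0.07, adjusted p = 0.69). Cdkn1a, a cell cycle inhibitor, had 50.2 and 56.3 CPM (0.11 ± 0.08, adjusted p = 0.31), and Tcf7, a Wnt-responsive factor, 5.98 and 6.31 CPM (0.01 ± 0.19, adjusted p = 0.97). Jmjd1c, a histone demethylase of the JmjC family, fell by 0.15 on the log2 scale (SE 0.05, adjusted p = 0.019), and Acacb, which makes malonyl-CoA, rose by 0.29 ± 0.11 (adjusted p = 0.044). The groups of both overlapped. With spike-in library sizes Jmjd1c, Acacb and, further on, Syk, Bms1, Dlg5 and Farp1 did not pass.

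A pair of genes that rose, Iigp1 and Ifi47, encode interferon-induced GTPases. Iigp1 went from 40 to 55.8 CPM (median 48.2) to 63.7 to 140 CPM (median 96), by 1.03 ± 0.13 (adjusted p = 8.99e-08). Ifi47 went from 16.3 to 19.7 CPM (median 17.9) to 24.6 to 48.4 CPM (median 32.1), by 0.93 ± 0.13 (adjusted p = 3.50e-07). In neither did the groups overlap, and the TBT libraries were widely spread. Reads of this family can be split among similar copies, and the labels do not say how such reads were counted. The remaining named rises were Prtg, an immunoglobulin-like adhesion protein (0.89 ± 0.10), Pknox2, a TALE homeobox factor (1.00 ± 0.12), and Psd3, an exchange factor for ARF6 (0.63 ± 0.08). Znfx1, a helicase of the RNA virus response, rose by 0.41 ± 0.08, and the region near its start had H3K27me3 folds of 4.08, 1.82 and 2.52.

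The clearest falls were at Map6, Mitf and Unc13c. Map6, which stabilises microtubules, had 88.4 to 101 CPM in DMSO (median 94.1) and 66.9 to 73.3 CPM under TBT (median 68.9), a log2 fold change of -0.45 ± 0.05 (adjusted p = 6.54e-09). Its region had islands in all 4 TBT libraries (1.39, 1.38, 1.35 and 1.44) and H3K4me3 in all 8. Mitf, the melanocyte and osteoclast transcription factor, went from 39.5 to 50 CPM (median 43.7) to 21.3 to 31 CPM (median 25.7), by -0.78 ± 0.09 (adjusted p = 1.28e-08). Unc13c, a vesicle priming protein, went from 24.1 to 34.6 CPM (median 29.7) to 11.8 to 18.1 CPM (median 14), by -1 ± 0.12 (adjusted p = 2.16e-08). In all 3 the groups were apart. The regions of Mitf and Unc13c lay inside the genes and had no H3K4me3 island.

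Falls with the start inside or near the region were seen at Rassf7, Nrgn, Lef1, Syk and Dpcr1. Rassf7, a Ras-association protein of the spindle, had 34.6 to 43.5 CPM in DMSO (median 39.3) and 22.7 to 32.4 CPM under TBT (median 27.9), a log2 fold change of -0.50 ± 0.08 (adjusted p = 6.71e-06) with groups apart. Its 29000-bp region also holds the starts of Phrf1 and Lmntd2 and the hairpin of Mir210. Nrgn, the calmodulin-binding protein neurogranin, went from a median of 18.3 CPM to 9.73 CPM, by -0.88 ± 0.16 (adjusted p = 4.66e-05), with islands in all 4 TBT libraries (1.72, 1.39, 1.57 and 1.73). Lef1, the nuclear partner of beta-catenin in Wnt signalling, went from 37.2 to 44 CPM (median 39.9) to 23.1 to 34.3 CPM (median 30.5), by -0.44 ± 0.09 (adjusted p = 1.19e-04), apart. Syk, a kinase of immune receptors, fell by 0.80 (SE 0.23, adjusted p = 0.0068) at 6.53 CPM in DMSO and 3.61 CPM under TBT. Dpcr1, a mucin-like gene, fell by 1.33 (SE 0.30, adjusted p = 8.27e-04), from a median of 3.96 CPM to 1.35 CPM. Syk and Dpcr1 were low, and their groups overlapped.
Mecom, a zinc-finger regulator of stem cells, fell by 0.47 (SE 0.07) from a median of 69.4 CPM to 48 CPM. Smaller falls were those of Mpp6 (fell by 0.30), Epb4.1l4a (fell by 0.45), Gmnn, the replication inhibitor geminin (fell by 0.38), Bms1, a ribosome assembly GTPase (fell by 0.21), and Dlg5, a polarity scaffold (fell by 0.18). Of these only Dlg5 had overlapping groups.

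**Figure D5:**
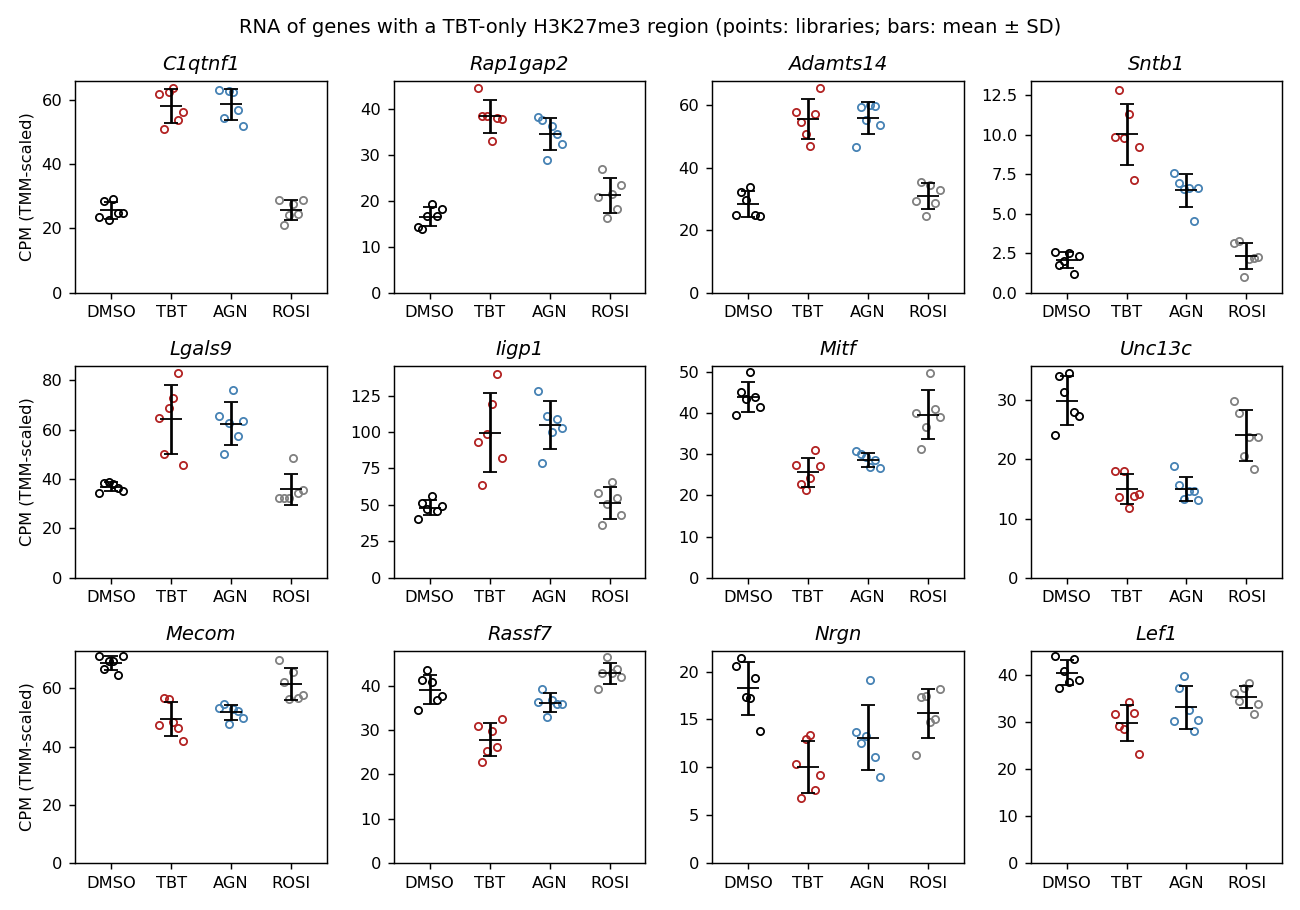
CPM of 12 genes with a TBT-only H3K27me3 region in DMSO, TBT, AGN194204 (AGN) and rosiglitazone (ROSI), with 1 circle per library and bars for mean ± SD (n = 6). TBT libraries lie above all DMSO libraries in the first 6 genes, such as C1qtnf1 (50.9 to 63.7 against 22.7 to 29.2 CPM), and below them in the last 6.

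Some genes with a TBT-only region were highly expressed. Prrc2a, an RNA-associated protein and the most abundant of these genes, had medians of 1115 CPM in DMSO and 1130 CPM under TBT (log2 fold change 0.02 ± 0.03, adjusted p = 0.73). The merged H3K27me3 region over its start held islands of all 4 TBT libraries. Whether the islands of each library reached the start was not tested. Lima1, an actin-binding protein, rose by 0.09 ± 0.03, Asap1 by 0.16 ± 0.03 and the myosin Myo18a by 0.19 ± 0.03, while Farp1 fell by 0.10 (SE 0.04). Rpn2 rose by 0.09 ± 0.03, and Myo10 was at 0.06 ± 0.04 (adjusted p = 0.21). Among the developmental genes on the lists, Sox5 (0.08 ± 0.11), Foxn2 (-0.11 ± 0.07), Hoxa3 (0.26 ± 0.12) and Sox13 (0.10 ± 0.18) did not pass the test. Bmp7, Acan, Wnt8a and Dlx1as were under the filter on low counts. Pknox2 and Meis2, which the list did not count, rose by 1.00 ± 0.12 and 0.17 ± 0.04. In bulk RNA, fewer cells that express a gene and less RNA per cell cannot be told apart.

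The RXR agonist and the PPARγ agonist were set beside TBT in the same genes, with no H3K27me3 data for either. The 3 comparisons share the 6 DMSO libraries. Under AGN194204, 62 of the 367 rose and 46 fell, or 29.4%, against 24.1% of all genes. With spike-in library sizes 37 rose and 13 fell, where 9.64% of all genes were called. Under rosiglitazone 3 rose and 0 fell at an adjusted p under 0.05 in edgeR, or 0.817%, against 1.04% of all genes. With no adjustment 12 had a higher and 35 a lower level at p under 0.05 (634 and 779 of all genes), and DESeq2 called 3 higher and 1 lower (92 and 67 of all genes, or 1.27%). C1qtnf1 had log2 fold changes of 1.18 under TBT, 1.19 under AGN194204 and 0.01 under rosiglitazone. For Adamts14 they were 0.97, 0.98 and 0.13, for Iigp1 1.03, 1.12 and 0.08, and for Unc13c -1, -1 and -0.31. Sntb1 had 2.28, 1.65 and 0.18. Psd3 had 0.63 under TBT and 0.17 under AGN194204 (adjusted p = 0.14), and Rassf7 -0.50 and -0.11 (adjusted p = 0.32). The difference between TBT and AGN194204 was not tested.

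Genes of the H3K27me3 machinery were measured in the same RNA libraries. Of 17 genes, 15 were tested, and 4 rose and 6 fell under TBT, where 28.9% of all genes were called. Ezh2, the main methyltransferase, had 146 to 162 CPM in DMSO (median 150) and 116 to 135 CPM under TBT (median 121), a log2 fold change of -0.30 ± 0.04 (adjusted p = 5.03e-07), with groups apart. Its subunits Eed (fell by 0.24) and Suz12 (fell by 0.15) and the PRC2-binding proteins Phf19 (fell by 0.42), Mtf2 (fell by 0.25) and Rbbp4 (fell by 0.10) were also lower. Ezh1, the alternative methyltransferase, rose by 0.36 ± 0.09, from a median of 28.9 CPM to 40 CPM, and Phf1 and Jarid2 rose by 0.29 ± 0.08 and 0.22 ± 0.08. The demethylase Kdm6b rose from 99.6 to 131 CPM (median 120) to 139 to 174 CPM (median 161), by 0.44 ± 0.06 (adjusted p = 1.79e-07), apart, while Kdm6a was at -0.06 ± 0.08 (adjusted p = 0.61). With spike-in library sizes 3 rose and 1 fell, where 16.7% of all genes were called, and the log2 fold change of Ezh2 was -0.21 (adjusted p = 0.051). Among the 6 that fell, only Phf19 passed with spike-in sizes. Under AGN194204 3 rose and 4 fell, where 24.1% of all genes were called. Under rosiglitazone 0 of 15 passed in edgeR or DESeq2 (lowest adjusted p = 0.41 in edgeR, 1 with an unadjusted p under 0.05), where edgeR called 1.04% of all genes.

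Cell type markers were read in the same RNA libraries. All 9 stromal markers were tested, with summed levels of 1590 to 1633 CPM in DMSO and 1533 to 1619 CPM under TBT, of which 2 rose and 2 fell. The 6 adipocyte markers summed to 1.40 to 3.82 CPM in DMSO and 31.8 to 44.5 CPM under TBT, with the 1 tested marker higher and Lep at 0 in all libraries. Blood and macrophage markers summed to 9.82 to 13.4 and 9.90 to 12.1 CPM, with Adgre1 at 0, and osteoblast markers to 1.41 to 4.20 and 1.87 to 6.78 CPM. Endothelial markers summed to 2.91 to 8.90 and 1.74 to 5.20 CPM, and smooth muscle markers to 648 to 720 and 663 to 850 CPM, with 2 of 3 tested higher under TBT. No gene on these marker lists had a TBT-only region. RNA libraries held 3801758 to 5347365 gene counts, and ChIP islands held 6053178 to 11266617 H3K27me3 reads per library.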

How the data were processed

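RNA, H3K27me3 and H3K4me3 libraries of mouse stromal cells were used. The authors deposited raw read counts per gene, and per island the ChIP and input read counts, a p-value and FDR, and a fold (ratio of ChIP over scaled input). Islands were called per library with SICER, per the submitters' processing notes, with 200-bp windows, 600-bp gaps and an FDR of 0.001 by the deposited file names. The authors' table of differential peaks holds log2 concentrations with p-values, made with DiffBind per the submitters' processing notes. Builds are GRCm38 and mm10. Library kits were strand-specific per the labels, but the read counter and its strand setting are not given in the sources used here.

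Islands of the 8 H3K27me3 libraries were merged at overlap, and genes were assigned from RefSeq (GRCm38.p6). For RNA (24 libraries in 1 fit) and H3K4me3, the counts entered edgeR 4.0.16 (quasi-likelihood test, TMM, Benjamini-Hochberg, threshold 0.05) in R 4.3.3, with DESeq2 1.42.0 as an alternative. RNA counts were first filtered with filterByExpr. H3K4me3 had no such filter, and every region with islands in all 8 libraries was tested. The scripts were tested on simulated data. The spread between libraries was 5.24% for RNA and 9.89% for H3K4me3 (biological coefficient of variation). Reads given to no gene, 22.9% to 26.2% of counts, were left out. The log2 expression table was not used. Each of 60 pairs of RNA libraries within a group differed beyond counting noise.

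The members and lists were chosen with earlier results of these data known. Named regions were the 8 longest, the 8 of highest median fold in all 4 TBT libraries, the 8 of smallest authors' FDR and up to 10 with a start and H3K4me3, and only part of them are described. Named genes were up to 12 in each direction by adjusted p, the 8 of highest level and those on the lists. Lgals9, Irf5, Reck, Mir17hg, Syk, Emilin2, Znfx1, Jmjd1c, Dnmt3a, Cxcr4, Tcf7, Cdkn1a, Acacb, Dpcr1, Gprc5c, Lmtk3, Lin28a and Camta1 were added after their values were seen.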

Additional observations from a re-analysis of the deposited data

Results flagged for a closer look

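Among 136 groups of 4 to 6 samples tested, 5 had a sample far from the others, and chance alone flags about 1 in 20 groups. Epb4.1l4a had 55.4 CPM in its highest DMSO library and 33.2 CPM in its lowest TBT library. Irf5 had 22 CPM in its lowest TBT library, which lies within the DMSO range. Myo18a had 412 CPM in its lowest DMSO library, and Prtg 61.6 CPM in its highest TBT library. Leaving out any 1 library of either group did not change the call of these 4 genes.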

How the results depend on the processing

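The number of TBT-only regions depended on the call settings. It was 708 with islands at an FDR of at most 1e-6 (204 DMSO-only), 102 at a fold of at least 2 (11 DMSO-only), 289 when all 4 TBT libraries were needed and 5492 when 2 were. Leaving out 1 library at a time gave 1621 to 3864, since fewer libraries then have to lack or hold an island. Counts over 1.5 times the main one came without TBT replicate 1, 2, 3 or 4 (3502, 3864, 3853 and 3138), where 2 of 3 libraries suffice, and without DMSO replicate 4 (2172). Without any 1 DMSO library, where 2 of 3 DMSO libraries make a DMSO-only region, DMSO-only regions (2078 to 2475) outnumbered TBT-only ones.

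With spike-in library sizes, RNA of member genes under TBT fell in 14 cases (293 of all genes). Under AGN194204 37 rose and 13 fell (908 and 300 of all genes), while under rosiglitazone 0 rose (21 of all genes). The spike-in sizes moved the median of all genes from -0.01 to 0.08 under TBT. With a start within 2 kb, 125 genes were tested, so fewer enter. Of these, 23 rose and 20 fell under TBT (34.4%, against 28.9% of all genes). Under AGN194204 24 rose and 9 fell (26.4%, against 24.1% of all genes). With only regions in all 4 TBT libraries, a setting added after seeing the data, 86 genes were tested. The counts were 12 and 17 for TBT (33.7%), 12 and 11 for AGN194204 (26.7%), and 0 higher for rosiglitazone. Rosiglitazone had 1 gene lower with DESeq2 (67 of all genes). It had 4 lower with no filter, 4 with only its 2 groups and 0 to 1 leaving out 1 library. Counts over all genes at those other settings are not given, so they have no background. H3K4me3 calls in TBT-only regions were 3 with DESeq2. Of the PRC2 list 1 fell with spike-in sizes (293 of all genes). The cause was not tested.

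Equal replicate numbers did not pair the libraries: deviations of same-numbered libraries correlated at -0.03 to 0.10 for RNA and 0 to 0.09 for H3K4me3. With the replicate block, 81 of the 367 member genes rose and 60 fell under TBT, 66 and 55 under AGN194204, and 4 and 3 under rosiglitazone. The share of all genes called with the block is not given, so these counts have no background.

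Of 1071 values of the named genes under other settings, 1004 kept direction and side of the threshold, 65 of 14 genes lost the call, 2 gained it (Foxn2 and Hoxa3) and 0 reversed. Leaving out 1 library could end the call for Acacb, Farp1, Jarid2, Jmjd1c, Mtf2, Rbbp4 and Rpn2. Low folds and 1 input per treatment limit what the island calls can separate.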
